A study of Mus musculus with 6 samples.

Results

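Collagen and elastin fibres gain their strength from covalent bonds between neighbouring chains, and the enzymes that prepare and form those bonds are the subject here. They were followed in mouse embryonic fibroblasts, the connective-tissue cells grown out of mouse embryos, that carried either the WT genotype or a knockout of Fbxw7 (labelled Fbxw7 KO). The 9 genes chosen by name were the lysyl oxidases Lox, Loxl1, Loxl2, Loxl3 and Loxl4, the lysyl hydroxylases Plod1, Plod2 and Plod3, and the transglutaminase Tgm2. Each of the 9 was found once among the 53323 loci of the deposited tables, 2 of them in a locus that also carried the name of a microRNA (Mir6950 with Loxl2, Mir702 with Plod3). Fbxw7 encodes the part of a ubiquitin ligase that picks proteins such as MYC, JUN and NOTCH for degradation. Both genotypes grew in DMEM with 15% FBS and 1% NEAA, and no treatment was named. The labels gave neither the deleted exons, the way the knockout was made, the sex or age of the embryos, nor whether separate cultures stood behind the 3 libraries of each genotype. The p-values below therefore measure the spread between these libraries, which may be technical.

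Lysyl hydroxylases work inside the endoplasmic reticulum, where they add hydroxyl groups to lysines of new collagen chains, and these decide which kind of crosslink can form later. Lysyl oxidases are copper enzymes that act outside the cell; they turn lysines and hydroxylysines into reactive aldehydes, which then condense into crosslinks. Transglutaminase 2 joins glutamine to lysine side chains and acts on fibronectin and other matrix and cell proteins. Fibroblasts are a main source of all 3 kinds of enzyme.

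The 6 libraries held 55720129 to 64198455 estimated fragments. Each of the 10 fibroblast markers checked was at 1 CPM or more (fragment counts scaled to a common library total) in all 6 libraries, beside markers of other cell types at lower sums. The sum of 6 epithelial markers was 0.581 to 3.65 CPM in WT and 1.21 to 1.38 CPM in KO (Krt8 at 0), that of 6 blood cell and macrophage markers 1.49 to 2.32 and 0.631 to 1.36 CPM (Adgre1 and Tyrobp at 0), and that of 6 skeletal muscle markers 0.523 to 0.697 and 0.454 to 0.583 CPM (Myod1 and Myf5 at 0). For 6 endothelial markers it was 7.68 to 10 CPM in WT and 1.38 to 2.04 CPM in KO. For 5 cartilage markers, nearly all of it Sox9, it was 36.4 to 53.6 and 22.8 to 31.0 CPM, and for 5 neural markers, mostly Map2 with Sox2 at 0, it was 24.9 to 29.5 and 12.3 to 20.9 CPM. The blood cell, endothelial, cartilage and neural sums did not overlap between genotypes and were lower in KO. Among all genes tested, 18.4% had CPM ranges that did not overlap and were lower in KO. The endothelial sum was carried by Kdr, Tek and Vwf, while Pecam1, Cdh5 and Emcn added little. Cd68 and Csf1r carried the blood cell sum. The means of Csf1r and of the neural marker Elavl3 were higher in KO. Whether the genotypes differed in cell types was not tested. The sum of 6 smooth muscle and mural cell markers was 2450 to 5210 CPM in WT and 1530 to 3000 CPM in KO, carried mainly by Acta2 and Tagln, which cultured fibroblasts also express. Fbxw7 itself read 28.4 to 30.1 CPM in WT and 24.1 to 27.6 CPM in KO, a sum over the whole gene that does not check the genotype. Xist read 0.213 to 2.17 CPM in WT and 798 to 1050 CPM in KO, and the Y-linked Ddx3y 81.8 to 109 CPM in WT and 24.0 to 35.9 CPM in KO, so sex-linked transcripts moved with the genotype labels. The part of these differences in the results below was not tested. In each genotype replicate 3 stood apart. This was read from squared differences between libraries, as the median over genes with at least 50 fragments in both. For replicate 3 against replicate 1 or 2, that median was 27.3 to 44.1 times the one from sampling noise alone. For replicate 1 against replicate 2 it was 7.55 times (WT) and 6.56 times (KO).

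Of the 9 enzyme genes, all of which passed the filter on low counts, 3 were higher in KO by the test and 6 did not pass it. Tgm2 rose 4.01-fold, Plod1 rose 2.53-fold and Loxl2 rose 1.28-fold. In the same fit 16.1% of all 16787 genes tested were called, 8.03% higher and 8.08% lower in KO. None of the 9 was called lower (0 in edgeR, with 2 lower at an unadjusted p under 0.05, and 1 called lower by DESeq2, where 11.3% of all genes were). In either direction, 5 of the 9 and 5299 of all 16787 genes tested had an unadjusted edgeR p under 0.05. The median log2 fold change of the 9 was 0.16, beside 0.01 for all genes tested. The ranges of the 2 genotypes did not overlap for 5 of the 9, 3 of them higher and 2 lower in KO, as was the case for 37.7% of all genes tested (19.2% higher, 18.4% lower). In bulk RNA a smaller number of expressing cells and less RNA per cell cannot be told apart.

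**Figure D1:**
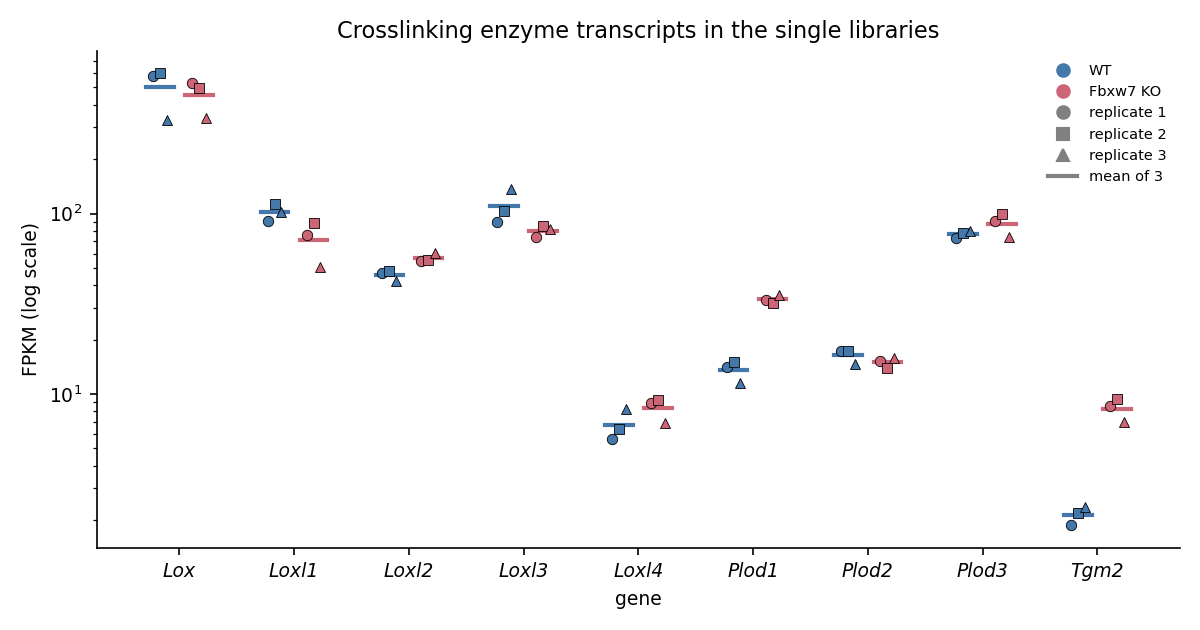
FPKM (fragments per transcript length and library size, log axis) of the 9 enzyme genes in each library, blue for WT and red for Fbxw7 KO, with 1 symbol shape per replicate number and a line at the mean of 3. Lox stands above the other 8 in all libraries, and its replicate 3 symbols lie below the other replicates in both genotypes. Tgm2 and Plod1 separate widely by genotype. Without overlap but by less, Loxl2 lies higher and Loxl1 and Loxl3 lie lower in KO.

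Plod1 encodes lysyl hydroxylase 1, which hydroxylates lysines in the helical part of collagen and is deficient in the kyphoscoliotic form of Ehlers-Danlos syndrome. It lies on chromosome 4 from 147909753 to 147936767 (minus strand, protein coding, mm10). The 250 bases before its start in RefSeq (GRCm38.p6, chr4:147936777-147937026, minus strand) are shown because Plod1 is the called member for which a promoter sequence was at hand. They are printed 5′ to 3′ with capitals on GGGCGG, the GC box, on either strand.
Plod1: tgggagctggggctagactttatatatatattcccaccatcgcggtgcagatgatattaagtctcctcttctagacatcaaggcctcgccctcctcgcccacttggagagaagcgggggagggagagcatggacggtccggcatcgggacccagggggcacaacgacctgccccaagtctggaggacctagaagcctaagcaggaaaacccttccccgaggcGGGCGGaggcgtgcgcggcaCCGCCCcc

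This window held 61.6% G and C and 16 CG pairs, against medians of 52.0% and 6 over the windows of 27025 genes. Its 2 GC boxes began 28 and 8 bases before the start, and 32.9% of all windows held at least 1. The E-box CACGTG, present in 6.05% of all windows, the shorter ACGTG that lies inside it and is the core of hypoxia response elements (16.6%), and the AP-1 motif TGANTCA (6.87%) had no match in these letters on either strand. Promoter windows were at hand for 3 of the 9 genes, Plod1, Plod3 and Loxl4. The window of Loxl4 held 3 GC boxes and that of Plod3 none, while Plod3 had 1 match to ACGTG, 54 bases before its start. Unlike that of Plod1, these windows overlapped annotated exons, of Loxl4 itself and, for Plod3, of Znhit1.

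The 3 WT libraries read 45.8, 47.5 and 36.0 CPM for Plod1, and the 3 KO libraries 106, 106 and 115 CPM. Every KO library lay above every WT library, and the lowest KO value was more than double the highest WT value. The means were 43.1 ± 6.23 CPM in WT and 109 ± 5.11 CPM in KO (SD, n = 3 each). The log2 fold change of Plod1 was 1.34 ± 0.12 (SE; 95% interval 1.05 to 1.62; adjusted p = 0.000695, edgeR quasi-likelihood test with Benjamini-Hochberg adjustment over all genes tested). It passed in all 19 alternative fits, at 1.18 to 1.44 on the log2 scale.

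Plod2, on chromosome 9 from 92542223 to 92608428, encodes the hydroxylase of the short end regions of collagen, the telopeptides, and is known for the stiff crosslinks of fibrotic tissue. Its WT libraries read 63.6, 62.7 and 52.6 CPM, beside 57.0, 49.9 and 57.5 CPM in the KO libraries. The genotypes overlapped, with WT replicate 3 among the KO values. Plod2 missed the threshold at a log2 fold change of -0.12 ± 0.11 (SE; 95% interval -0.38 to 0.13; edgeR adjusted p = 0.496).

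Plod3, on chromosome 5 from 136987019 to 136996648, encodes a hydroxylase that also attaches sugars to hydroxylysine. Its WT libraries read 213, 228 and 220 CPM, a narrow range. KO replicates 1 and 2 read 266 and 280 CPM and KO replicate 3 read 194 CPM, so that the KO libraries lay on both sides of WT. The log2 fold change was 0.16 ± 0.14 (SE; 95% interval -0.17 to 0.49; edgeR adjusted p = 0.49). Without KO replicate 3 it was 0.30 with an edgeR adjusted p of 0.0496, so 1 library decided this call. Of the exon bases of Plod3, 11.7% are shared with exons of Znhit1 on the opposite strand, and reads there cannot be told apart without strand. Znhit1 read 30.4 ± 0.553 CPM in WT and 29.1 ± 4.04 CPM in KO (SD, n = 3 each).

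Per length, the 3 hydroxylases summed to 105, 110.5 and 106 FPKM in WT and to 139, 146 and 125 FPKM in KO. Plod3 made up most of this sum in every library, 70.0% to 75.4% in WT and 59.0% to 68.5% in KO. The share of Plod1 was 13.5%, 13.6% and 10.8% in WT and 23.8%, 22.0% and 28.4% in KO. The share of Plod2 was 16.5%, 15.7% and 13.8% in WT and 10.9%, 9.55% and 12.6% in KO. Plod2 thus stood above Plod1 in each WT library and below it in each KO library. For the sum and for all 3 shares the genotypes did not overlap. The 3 shares make up the whole of 1 sum, so they are not separate results. Plod2 and Plod3 had lower shares in KO, yet the FPKM of each overlapped between genotypes. An exact two-sided permutation test gave p = 0.1 for the sum and each share, the smallest that 3 against 3 libraries allow. After Benjamini-Hochberg adjustment over the 10 sums and shares of both families, each was 0.2.

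**Figure D2:**
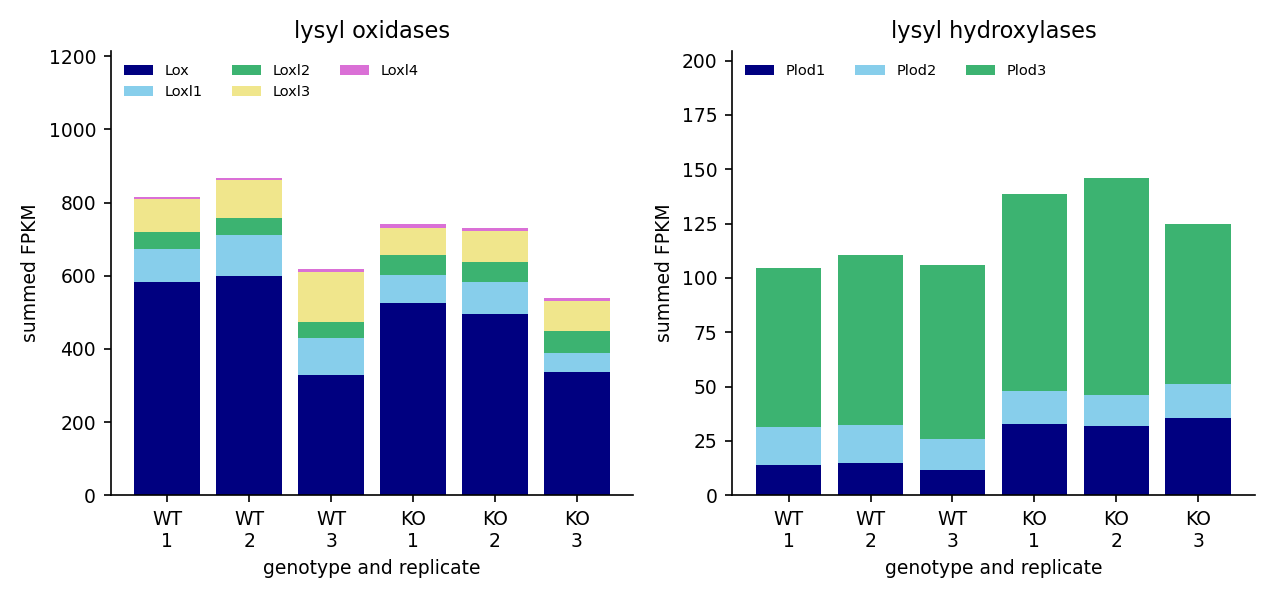
Summed FPKM of the 5 lysyl oxidases (left) and the 3 lysyl hydroxylases (right), 1 bar per library with WT and Fbxw7 KO replicates 1 to 3 side by side and colours for the genes. The Plod1 segment is taller in each KO bar than in each WT bar, and the Lox segment is shortest in replicate 3 of both genotypes.

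Lox, the founding lysyl oxidase, acts on fibrillar collagens and elastin. It lies on chromosome 18 from 52516067 to 52529867 (minus strand, protein coding). Its WT libraries read 2684, 2720 and 1472 CPM and its KO libraries 2470, 2267 and 1601 CPM. Replicate 3 was the lowest of its genotype in both cases, at 0.545 (WT) and 0.676 (KO) times the mean of replicates 1 and 2, and the genotypes overlapped. The log2 fold change of Lox was -0.12 ± 0.26 (SE; 95% interval -0.72 to 0.49; edgeR adjusted p = 0.798), the widest interval of the 9. The sign of this uncalled difference depended on single libraries: leaving out WT replicate 1, WT replicate 2 or KO replicate 3 gave 0.0089, 0.02 and 0.045.

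Loxl1, on chromosome 9 from 58287738 to 58313186, encodes the oxidase needed for the upkeep of elastic fibres. It read 307, 374 and 334 CPM in the WT libraries, against 262, 298.5 and 176 CPM in those of KO. All KO libraries lay below all WT libraries, KO replicate 3 by the widest margin, yet at a log2 fold change of -0.46 ± 0.19 (SE; 95% interval -0.90 to -0.02) the adjusted threshold was missed (edgeR adjusted p = 0.144, unadjusted p = 0.0425). Without KO replicate 3 it was -0.27.

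Loxl2, on chromosome 14 from 69609068 to 69695834, encodes an oxidase with scavenger receptor domains that crosslinks type IV collagen of basement membranes. It read 256, 259 and 226 CPM in the WT libraries, against 307, 305 and 337.5 CPM in those of KO, so the genotypes did not overlap. The means were 247 ± 18.0 and 316 ± 18.4 CPM (SD, n = 3 each), with a log2 fold change of 0.36 ± 0.10 (SE; 95% interval 0.13 to 0.59; edgeR adjusted p = 0.0472). Its call stood close to the threshold: it passed in 6 of 19 alternative fits and in none of the 6 that left out 1 library, where the edgeR adjusted p was 0.0628 to 0.133 and the log2 fold change 0.30 to 0.39.

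Loxl3, on chromosome 6 from 83034173 to 83052562, encodes a close relative of Loxl2 that is needed for palate and spine formation in mice. Its WT libraries read 343, 377 and 493.5 CPM and its KO libraries 272.5, 310 and 289 CPM. Every KO library lay below every WT library, and WT replicate 3 was the highest. The log2 fold change was -0.48 ± 0.15 (SE; 95% interval -0.82 to -0.14; edgeR adjusted p = 0.0639), and 3 of 19 alternative fits called it lower. Without WT replicate 3 it was -0.31 (edgeR adjusted p = 0.0751). Of its exon bases 11.6% are shared with exons of Htra2 on the opposite strand, which read 49.1 ± 3.44 CPM in WT and 57.1 ± 1.81 CPM in KO (SD, n = 3 each).

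Loxl4, on chromosome 19 from 42593982 to 42612813, had the lowest FPKM of the oxidases. It read 21.7, 24.4 and 31.0 CPM in the WT libraries, against 35.3, 35.9 and 27.3 CPM in those of KO. KO replicates 1 and 2 lay above every WT library, whereas KO replicate 3 lay between WT replicates 2 and 3, so that the genotypes overlapped. Loxl4 missed the threshold at a log2 fold change of 0.35 ± 0.17 (SE; 95% interval -0.03 to 0.74; edgeR adjusted p = 0.194).

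The 5 oxidases together summed to 815, 868 and 618 FPKM in WT and to 741, 732 and 538 FPKM in KO, and the genotypes overlapped (exact two-sided permutation test, p = 0.4). Lox alone made up 53.2% to 71.4% of this sum in WT and 62.8% to 71.1% in KO. Loxl2 was the oxidase whose share did not overlap between genotypes, at 5.52% to 6.88% in WT and 7.41% to 11.2% in KO (exact two-sided permutation test, p = 0.1, the smallest this design allows, and 0.2 after the same adjustment).

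Tgm2, on chromosome 2 from 158116402 to 158146436 (minus strand, protein coding), had the lowest FPKM of the 9 in WT and the largest log2 fold change. It read 6.91, 7.999 and 8.48 CPM in the WT libraries, against 32.6, 34.6 and 26.5 CPM in those of KO. The lowest KO library lay above the highest WT library by more than the whole range within either genotype. The means were 7.80 ± 0.808 and 31.2 ± 4.23 CPM (SD, n = 3 each), with a log2 fold change of 2.002 ± 0.15 (SE; 95% interval 1.66 to 2.34; edgeR adjusted p = 0.000281). The test called Tgm2 in all 19 alternative fits, at 1.56 to 2.17 on the log2 scale; the lowest came from log2(FPKM + 1), where the added 1 shrinks differences of low genes. Exons on the opposite strand share bases with Tgm2: those of Rprd1b 8.03% of its exon bases and those of Gm20412 13.7%. Rprd1b read 30.0 ± 0.445 CPM in WT and 37.1 ± 5.21 CPM in KO (SD, n = 3 each), and Gm20412 was at or below 0.0946 CPM in the mean of either genotype.

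**Figure D3:**
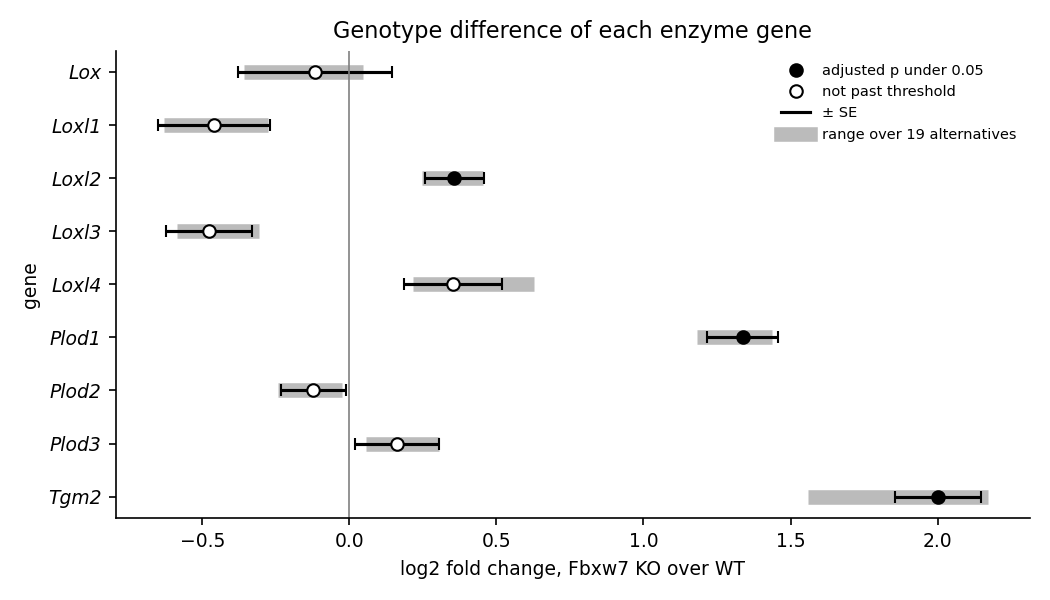
Log2 fold change of Fbxw7 KO over WT for each of the 9 enzyme genes (point, with SE as whiskers; filled where the edgeR adjusted p is under 0.05), over grey bars that span the values from 19 alternative fits. The bars of Tgm2 and Plod1 stay above 1, while the bar of Lox crosses 0.

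Ordered by FPKM, the WT levels ran from Lox (503) through Loxl3 (110), Loxl1 (102), Plod3 (77.1), Loxl2 (45.7), Plod2 (16.4), Plod1 (13.5) and Loxl4 (6.74) to Tgm2 (2.15). Neighbours overlapped over the WT libraries for 2 pairs, Loxl3 with Loxl1 and Plod2 with Plod1. In KO the order was Lox (453), Plod3 (88.03), Loxl3 (80.4), Loxl1 (71.6), Loxl2 (56.9), Plod1 (33.5), Plod2 (14.9), Loxl4 (8.35) and Tgm2 (8.30). There Plod3, Loxl3, Loxl1 and Loxl2 formed a run in which each overlapped the next, and Loxl4 and Tgm2 overlapped as well.

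The spread within a genotype followed replicate 3 for several genes, and not in one way. In WT, replicate 3 was higher than the mean of replicates 1 and 2 for Loxl3 (1.37 times), Loxl4 (1.35 times) and Tgm2 (1.14 times), and lower for Plod1 (0.771 times), Plod2 (0.834 times) and Loxl2 (0.879 times). In KO it was higher for the same Loxl2 (1.1 times), Plod1 (1.08 times) and Plod2 (1.08 times), and lower for Tgm2 (0.788 times), Loxl4 (0.766 times), Plod3 (0.710 times) and Loxl1 (0.627 times). In both genotypes it lay below that mean for Lox, by the factors given above, and also for Loxl1 and Plod3, which in WT stood at 0.980 and 0.998 times. With replicate 3 of both genotypes left out, a choice made after seeing the data, 5 of the 9 genes were called higher and 3 lower, at a background of 20.7% and 20.6% of all genes; Loxl4 then stood at 0.63 and Plod3 at 0.31 on the log2 scale. When the closely similar replicates 1 and 2 were merged within each genotype, also chosen afterwards, 2 genes were called higher, Plod1 and Tgm2 (edgeR adjusted p = 0.0193 and 0.0139), at a background of 1.58%.

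**Figure D4:**
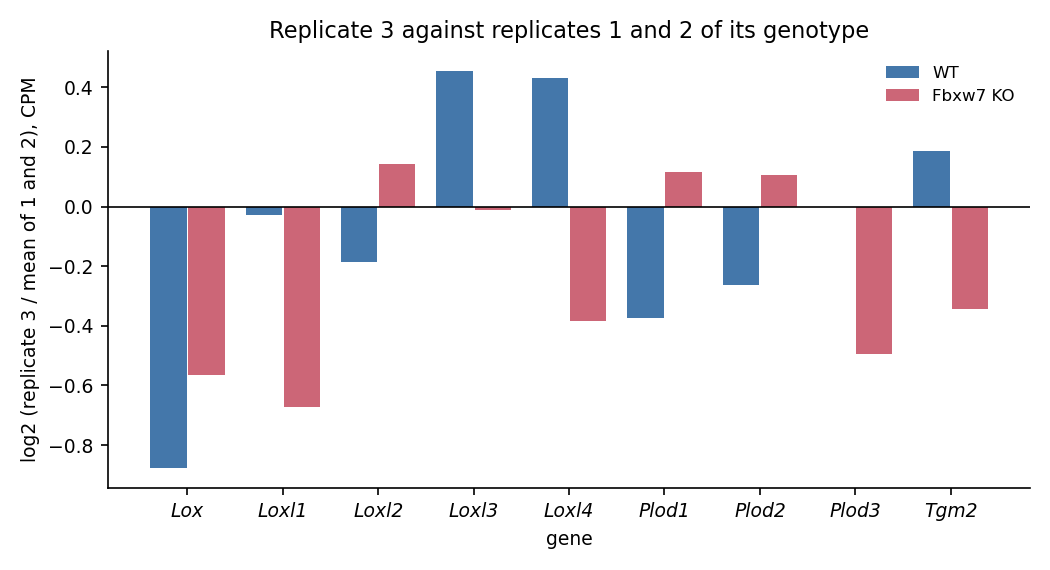
Log2 ratio of replicate 3 to the mean of replicates 1 and 2, in CPM, for each enzyme gene, with blue bars for WT and red bars for Fbxw7 KO. Lox is far below 0 in both genotypes, and Loxl4 and Tgm2 are above 0 in WT and below 0 in KO.

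Genes that supply, assist or receive the crosslinking reaction changed in both directions, in counts given here beside the 16.1% of all genes called. Fits that left out libraries had other backgrounds: without replicate 3 of both genotypes, 20.7% of all genes were called higher and 20.6% lower. Without WT replicate 3, 3183 genes were called, and without KO replicate 3, 3282. In the main fit 5299 of the 16787 genes tested had an unadjusted edgeR p under 0.05. Among the other transglutaminases, 2 of 9 were tested, as 6 were too low and Tgm4 lay in a locus shared with other genes; F13a1, the A subunit of clotting factor XIII, rose from 0.144 ± 0.0265 to 0.386 ± 0.124 CPM (SD, n = 3 each; edgeR adjusted p = 0.0433), a trace level at which the call was lost in 12 of 16 alternative fits, among them all 6 that left out 1 library (edgeR adjusted p 0.0766 to 0.131). The copper amine oxidases Aoc2 and Aoc3 gave log2 fold changes of 0.05 and 0.04 and did not pass, and single libraries decided their sign.

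Lysyl oxidases receive copper in the secretory pathway. Of 6 tested genes of copper supply, Atox1, the chaperone that hands copper to the transporters Atp7a and Atp7b, fell from 41.1 ± 2.85 to 31.4 ± 1.46 CPM (SD, n = 3 each; edgeR adjusted p = 0.0315), and 9 of 19 alternative fits lost the call, among them each that left out 1 library other than KO replicate 3 (edgeR adjusted p 0.0509 to 0.137). The other 5 did not pass. Without KO replicate 3, 1 gene of this list rose, and 2 rose without replicate 3 of both genotypes.

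Of 18 tested genes for collagen modification and folding in the endoplasmic reticulum, where the hydroxylases work, 3 fell and none rose (0 in edgeR and 0 in DESeq2, with 1 higher at an unadjusted p under 0.05 and 1 called higher without replicate 3 of both genotypes); the median log2 fold change was -0.16 and 14 of the 18 lay below 0. Sparc, which encodes a collagen-binding glycoprotein, fell from 3810 ± 173 to 2430 ± 211 CPM. Fkbp10, the prolyl isomerase that partners lysyl hydroxylase 2, fell from 239 ± 12.6 to 178 ± 7.60 CPM, and P4ha3, a catalytic subunit of prolyl 4-hydroxylase, from 176 ± 27.2 to 118 ± 20.5 CPM (SD, n = 3 each). As log2 fold changes these were -0.65 ± 0.12 (SE; edgeR adjusted p = 0.0109), -0.42 ± 0.09 (adjusted p = 0.0192) and -0.57 ± 0.16 (adjusted p = 0.0489). The call of P4ha3 was lost when any 1 library was left out (edgeR adjusted p 0.0618 to 0.129), that of Fkbp10 without WT replicate 2 (0.0753) or KO replicate 1 (0.105), and that of Sparc without WT replicate 1 (0.0543) or KO replicate 1 (0.0514), and 9 of the 18 fell without replicate 3 of both genotypes.

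Some lysyl oxidases, among them Lox, are secreted as precursors and cut by the tolloid proteases that also trim procollagen. Pcolce, the procollagen processing enhancer, lay in a locus shared with Fbxo24 (965 ± 111 CPM in WT, 724 ± 62.4 CPM in KO; SD, n = 3 each) and was left out of the list. Of 8 tested processing genes, the tolloid-like protease gene Tll1 fell from 66.0 ± 26.9 to 24.1 ± 4.02 CPM (SD, n = 3 each), or by 1.45 ± 0.27 (SE) on the log2 scale (edgeR adjusted p = 0.0113), with WT replicate 3 the highest library at 97.1 CPM. The call was lost without KO replicate 1 (adjusted p = 0.0578) or KO replicate 2 (adjusted p = 0.0593). Its relative Bmp1, chosen after its values were seen, read 320 ± 45.6 CPM in WT and 415 ± 38.4 CPM in KO and did not pass (edgeR adjusted p = 0.0963). Of these 8 genes 2 fell without WT replicate 3, 2 rose without KO replicate 3, and 4 rose and 2 fell without replicate 3 of both genotypes.

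Of 10 tested fibrillar collagens, the main substrates, Col11a2 rose from 1.60 ± 0.187 to 8.56 ± 1.03 CPM and Col11a1 fell from 229 ± 51.2 to 113 ± 20.4 CPM (SD, n = 3 each); both encode chains of type XI collagen. Col11a2 changed by 2.42 ± 0.18 (SE; edgeR adjusted p = 0.000283) and Col11a1 by -1.02 ± 0.19 (adjusted p = 0.0124) on the log2 scale. The call of Col11a1 was lost without WT replicate 1, KO replicate 1 or KO replicate 2 (edgeR adjusted p 0.0505 to 0.0549). The other 8 did not pass, and the list's median was -0.04. Of these 8, 2 abundant ones chosen after their values were seen differed in opposite directions. Col3a1 read 921 ± 466 CPM in WT and 2220 ± 82.9 CPM in KO (SD, n = 3 each; edgeR adjusted p = 0.059), with WT replicate 3 at 387 CPM. Col1a1 read 9070 ± 1860 CPM in WT and 6450 ± 652 CPM in KO (edgeR adjusted p = 0.0985). Without WT replicate 3 the list had 2 genes that rose and 3 that fell, and without replicate 3 of both genotypes 3 and 4.

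Of 16 tested genes of elastin and its assembly, 2 rose and 3 fell, at a median of -0.14. Those that fell numbered 6 without WT replicate 3, and 4 rose and 8 fell without replicate 3 of both genotypes. Fbn1, the fibrillin of microfibrils, rose by 0.78 ± 0.15 (SE) and Mfap5, which binds fibrillin, by 0.93 ± 0.11 on the log2 scale. The latent TGF-beta binding proteins Ltbp2 (-1.63 ± 0.22) and Ltbp1 (-1.51 ± 0.28) and the fibulin gene Efemp1 (-2.68 ± 0.39) fell, with edgeR adjusted p of these 5 from 0.00216 to 0.0139. Of 8 proteoglycans that coat collagen fibrils, Lum (4.08 ± 0.65) and Dcn (1.56 ± 0.36) rose and Ogn (-2.72 ± 0.39) fell (edgeR adjusted p 0.00412 to 0.0252). Leaving out 1 library ended the call of Fbn1 (WT replicate 1 or KO replicate 1; edgeR adjusted p 0.0561 and 0.0628), of Ltbp1 (KO replicate 1 or 2; 0.0514 and 0.0534) and of Dcn (WT replicate 2 or any KO replicate; 0.0702 to 0.0792). Of the proteoglycans 2 fell without WT replicate 3, and 4 rose and 3 fell without replicate 3 of both genotypes. With replicates 1 and 2 summed, a fit that called 484 genes in all, Lum, Ogn and Efemp1 missed the threshold as well. So did F13a1, Atox1, P4ha3, Fkbp10, Sparc, Tll1, Col11a1, Fbn1, Ltbp1 and Dcn (edgeR adjusted p 0.0968 to 0.219). Col11a2 (0.0142), Mfap5 (0.0476) and Ltbp2 (0.0421) kept their calls there. Without the count filter, Lum and Dcn missed the threshold (edgeR adjusted p = 0.0728 and 0.123), and 0 proteoglycans rose.

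**Figure D5:**
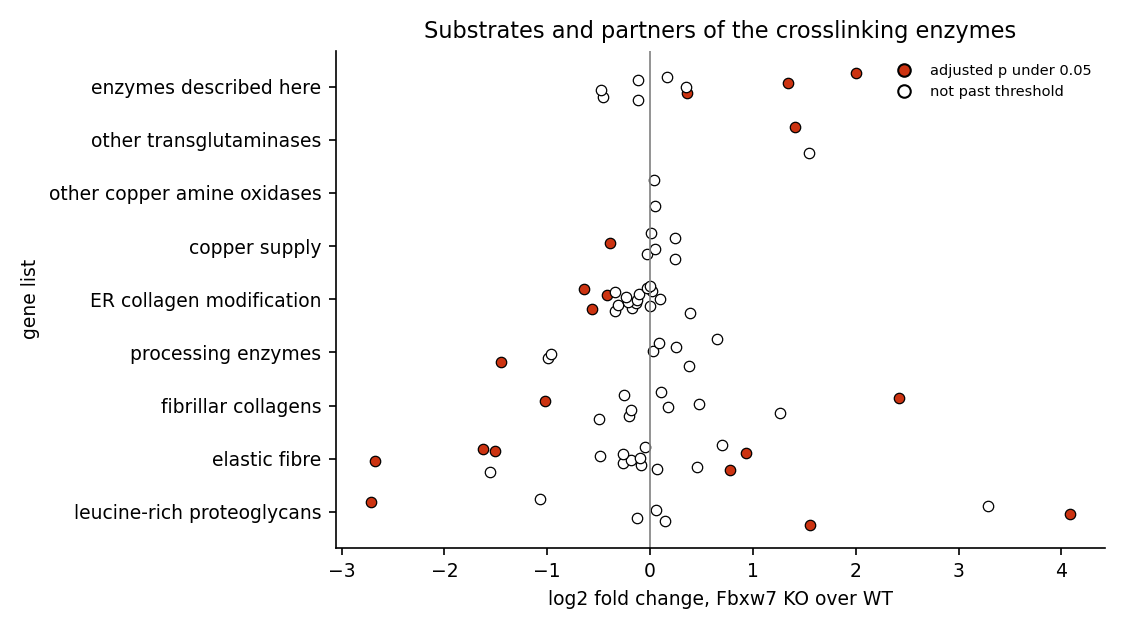
Log2 fold change of Fbxw7 KO over WT (horizontal axis) for every tested gene of the enzyme set and of 8 lists of substrates and partners, 1 point per gene and red where the edgeR adjusted p is under 0.05. Called genes lie on both sides of 0 in the fibrillar collagen, elastic fibre and proteoglycan lists.

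The genes most like 1 member of each enzyme class were sought over the 6 libraries among 8242 genes of at least 10 CPM, by the distance between log2 profiles centred on their means. Nearest to Lox were Ednra (distance 0.229), Pmp22 (0.247) and Prickle1 (0.273), which were all lowest in replicate 3 of each genotype. For Ednra, the endothelin A receptor gene, the WT libraries read 34.3, 34.9 and 18.6 CPM, and 31.8, 34.5 and 20.9 CPM were read in KO. Among the genes nearest to Plod2 were Btaf1 (0.0564) and Krit1 (0.0673). Nearest to Tgm2 were Slc29a1 (0.361), a nucleoside transporter gene, Ptx3 (0.416), a secreted pentraxin gene, and Abcg1 (0.416), a lipid transporter gene. Their log2 fold changes were 1.82, 2.31 and 1.97. All these genes were picked for closeness to a member over the same 6 libraries, so patterns and fold changes like its own follow from the choice.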

How the data were processed

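The tools named by the submitters' processing notes are TopHat2 2.1.1, Cufflinks 2.2.1, SAMtools 1.5 and deepTools, with the build mm10; neither annotation nor strand setting is among them (not given in the sources used here). One table that the authors deposited holds estimated counts per locus and the other FPKM; per the file headers both are Cufflinks tracking tables. Within a library 88.8% to 89.4% of deposited counts up to 1000 were whole multiples of 1 step (tolerance 0.05), so a scaling had been applied. A further 30 columns of variances and interval bounds were not used. Loci without a name (1317, at most 3.13e-05% of a library) and 12 loci marked HIDATA were left out.

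The design had assumed counts, so the estimated counts were rounded for the two-sided quasi-likelihood test of edgeR 4.0.16 under R 4.3.3 (filterByExpr, TMM, robust fit, a single genotype term). The fit covered all genes, with Benjamini-Hochberg adjustment over all of them and a threshold of 0.05. CPM uses the TMM-scaled library totals; the SE is the log2 fold change over the root of F, and the 95% interval uses its t distribution. Fragments carried no molecular identifiers, and the least covered member, Tgm2, had at least 411 estimated fragments in every library. FPKM served for levels between genes and in limma 3.58.1. DESeq2 1.42.0, other scalings, filters and left-out libraries were alternatives. Genes were placed by symbol on GENCODE M21 (mm10), and promoters came from RefSeq. The test was tried on simulated data.

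The members and all gene lists were chosen with earlier results of these data known. All 9 members are named; from each list up to 4 called genes per direction by adjusted p, or, where none was called, the 2 with the highest level; and the 3 most similar genes for Lox, Plod2 and Tgm2, of which 1 is not reported here. Listed genes in loci that carry the name of another protein-coding gene (Tgm4, Cox17 and Pcolce) were not tested as list members, nor were those under the count filter, and 1 listed processing gene was not analysed here. Tables and figures used Python 3.11.15.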

Additional observations from a re-analysis of the deposited data

How the results depend on the processing

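Plod1 and Tgm2 kept their direction and their call in all 19 alternatives, 6 of them without 1 library. With the replicate block, 2 members were higher, 0 lower (edgeR, with 2 lower at an unadjusted p under 0.05 in the unblocked fit) and 2356 genes were called. Same-numbered libraries deviated together at correlations of 0.0502, 0.167 and 0.116, and libraries of unlike number at -0.197 to 0.149. KO replicates 2 and 3 each correlated best with the WT library of the same number, and KO replicate 1 with WT replicate 2 (0.149). The labels named no pairs, and the main fit did not take the numbers as pairs. The members called higher ranged from 2 to 3 and those called lower stayed at 0 when 1 library was left out, while all genes called ranged from 1169 to 3282. One member, Loxl3, was lower without a count filter and by DESeq2 (1 in each). Without replicate 3 of both genotypes the counts were 5 higher, 3 lower and 6993 of all genes; with replicates 1 and 2 summed 484 genes were called. Limma called 1562 genes on log2(FPKM + 1), 1615 on log2(FPKM + 0.1) and 1182 without the filter; the cause was not tested. Sign changes occurred for uncalled genes: Lox (-0.36 to 0.045 over the fits that leave out 1 library) was above 0 without WT replicate 1, WT replicate 2 or KO replicate 3; Aoc2 (-0.17 to 0.18) was below 0 without WT replicate 3 or KO replicate 1; Aoc3 (-0.13 to 0.26) was below 0 without WT replicate 1, KO replicate 2 or KO replicate 3, and at -0.017 with replicates 1 and 2 summed. The 9 members had 411 or more fragments in every library; the part of depth in any result was not tested.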
